A study of Mus musculus with 29 samples.

Results

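Glucocorticoid receptor (GR) regions listed after prednisolone and at 6pm, but not at 6am, are described here. Peaks of the 6 GR ChIP-seq lists that overlapped by at least 1 bp were merged into 15329 regions. A region was kept when it held a peak in a prednisolone list and in a 6pm list, in at least 1 WT list, and in neither 6am list. This gave 939 regions, 6.13% of all merged regions. They were thus chosen by the GR peak lists and, through the lowest score of each list, by GR signal, so their GR listing is a description. The number depends on where the lists end: it was 610 with peaks scoring at least 2.5 and 238 with lists cut to the length of the shortest.

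The study profiled liver of 12-week-old male GRdim mice and GR+/+ littermates (called WT), both crossed back to BALB/c. Prednisolone was given for 24 h from pellets under the skin at 12 mg/kg, with collection at 6am. Untreated liver was taken at 6pm, when the dark phase began, and at 6am, when the light phase began. In both genotypes and all 3 conditions GR was mapped by ChIP-seq and by ChIP-exo. C/EBPβ was mapped by ChIP-seq in all 3 conditions, in WT mice alone. Each list pools 2 replicates, so the conditions have no replicate check. No test between conditions is given, and every 95% interval covers the counting of regions alone. The 2 RNA polymerase II and 12 input samples were not analysed here.

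GR is a nuclear receptor that binds DNA when corticosterone, or a drug such as prednisolone, occupies it. In nocturnal rodents corticosterone is high near the start of the dark phase and low near the start of the light phase. GRdim carries a point mutation in the dimerisation interface of the DNA-binding domain, which weakens binding of paired receptors to palindromic sites. C/EBPβ is a basic leucine zipper factor abundant in hepatocytes, which occupies many liver enhancers together with GR.

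The 939 regions fell into 3 large groups by the lists that held them. In all, 582 of them (62.0%) were in both the WT prednisolone and the WT 6pm list. Of these, 335 were in no GRdim list and 247 were also in at least 1 GRdim list. In the third group, 345 regions (36.7%) were in the WT 6pm list and reached the prednisolone condition only through the GRdim list. A further 12 regions joined the WT prednisolone list with the GRdim 6pm list.

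**Figure D1:**
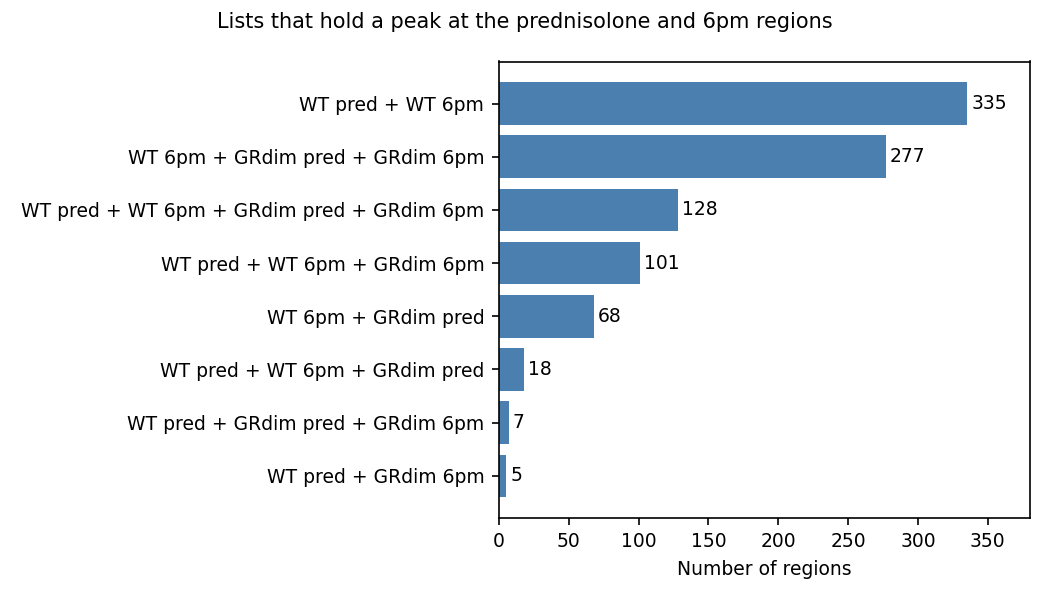
Number of regions (x axis) by the combination of GR lists that held a peak (y axis), where pred stands for prednisolone. The WT pair alone (335 regions) and the combination of WT 6pm with both GRdim lists (277 regions) are the longest bars.

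The class therefore holds 2 kinds of prednisolone evidence, and results are given for the 335, 247 and 345 regions apart. In all, 498 regions were in the GRdim prednisolone list and 518 in the GRdim 6pm list, against 594 in the WT prednisolone list and 927 in the WT 6pm list. All 4 of these lists held 128 regions. The lists differ in length. In GRdim they had 3208 peaks after prednisolone, 7440 at 6pm and 3183 at 6am. In WT they had 4304 after prednisolone, 14270 at 6pm and 5781 at 6am. Absence from a list is therefore not absence of binding.

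The regions were compact. Their median width was 222 bp and the widest spanned 396 bp. In the 582 regions of both WT lists, the centres of the prednisolone and the 6pm peak lay a median of 14 bp apart, the same median as in regions of all 3 conditions. They lay within 50 bp of each other in 92.6% of these regions. Peaks of 200 bp were merged where they overlapped, so the rule itself keeps these distances short.

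Few of the regions lay beside a 6am peak. The nearest 6am GR peak was centred a median of 36002 bp away, against 25817 bp for regions of 6pm alone and 55256 bp for regions of prednisolone alone. A 6am peak was centred within 500 bp of 25 regions (2.66%) and within 10 kb of 296 (31.5%). The closest was 209 bp away. Within 500 bp the share was 1.77% for regions of 6pm alone and 1.93% for regions of prednisolone alone. Within 10 kb it was 33.6% and 21.4%. Another region of the class lay within 10 kb of 106 regions (11.3%). Chromosome 3 held 73 of the regions, 8.80% of its merged regions, and chromosome 18 held 21, or 4.10%.

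GR scores were mostly low to middling within each list. The score is the authors' value per peak and is read here only as a rank within 1 list. The percentile counts the share of a list's peaks with a lower score, with ties shared. In GRdim, the median score of the class was 2.29 in the prednisolone list (n = 498) and 2.74 in the 6pm list (n = 518). In WT it was 2.51 after prednisolone (n = 594) and 3.25 at 6pm (n = 927). The WT medians stood at the percentiles 32.9 and 47.6 of their own lists, so most regions were in the lower part of the prednisolone list. The top 10% of the WT prednisolone list included 26 regions of the class, and that of the WT 6pm list included 5.

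Many regions stood close to the lowest listed score. Just inside the limit, 204 of 498 GRdim prednisolone scores (41.0%) and 144 of 594 WT prednisolone scores (24.2%) were below 2.2. At 6pm, 67 of 518 GRdim scores (12.9%) and 70 of 927 WT scores (7.55%) were. Just outside, 206 of the 3868 regions of all 3 conditions (5.33%) had a best 6am score below 2.2, and the lowest was 2.02.

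Prednisolone and evening ranks showed almost no relation within the class. Across the 582 regions of both WT lists, Spearman's rho between the WT prednisolone and WT 6pm scores was -0.013. It was 0.535 across 3237 regions of all 3 conditions that were in both WT lists. Restricting those to the range of 6pm scores seen in the class left a rho of 0.186 (n = 2151). These correlations are across regions of the same pair of lists and are descriptions. The percentile was higher after prednisolone in 216 regions and higher at 6pm in 366. The top 20% of the prednisolone list held 62 of the 582, that of the 6pm list held 39, and only 7 were in both.

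**Figure D2:**
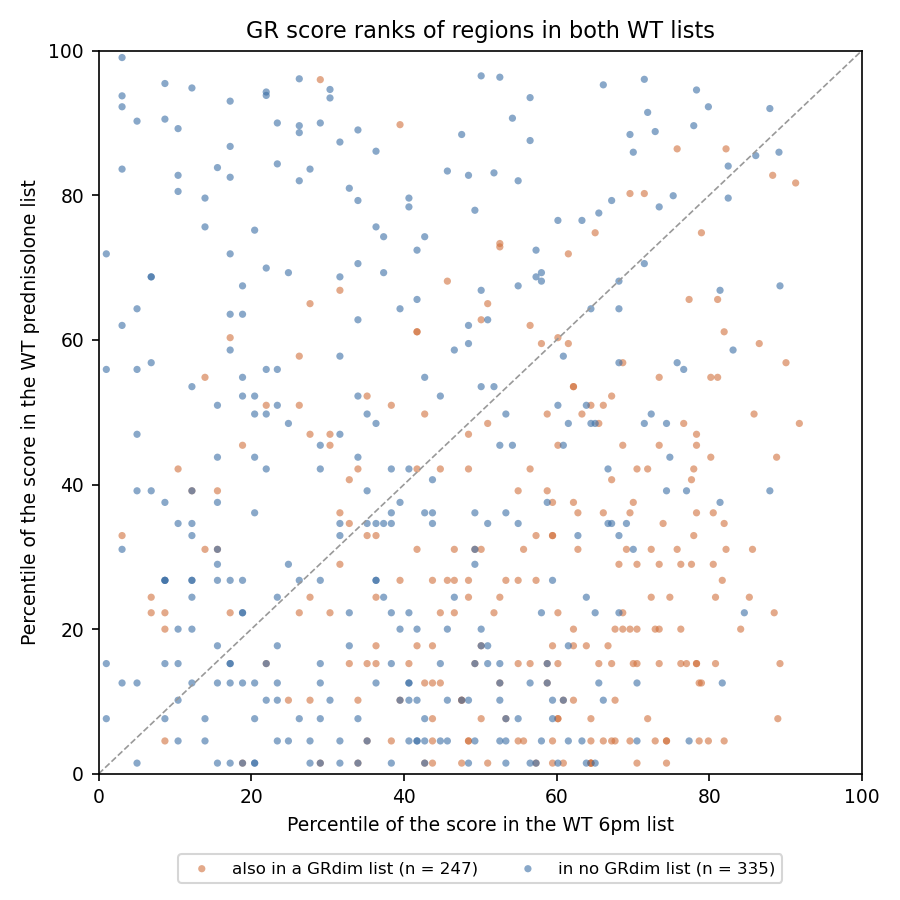
Percentile of the GR score in the WT prednisolone list (y axis) against that in the WT 6pm list (x axis) for the 582 regions in both, coloured by presence in a GRdim list. The dashed line marks equal percentiles. Points in no GRdim list fill the upper left, and points also in a GRdim list lie mostly low and to the right.

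Presence in GRdim went with the evening rank more than with the prednisolone rank. The 335 regions in no GRdim list had a median WT 6pm score of 2.92 (percentile 38.4), and the 247 also in a GRdim list 3.80 (percentile 59.5). After prednisolone the median WT score was 2.63 (percentile 37.5) for the 335 and 2.40 (percentile 26.8) for the 247. The GRdim 6pm list held 229 of the 247 and the GRdim prednisolone list 146, so the shared evening condition is not separated from presence in GRdim. By WT 6pm score, the GRdim prednisolone list held 36.5% of the 192 highest regions of both WT lists and 17.1% of the 199 lowest. By WT prednisolone score it held 19.0% of the 184 highest, 33.3% of the 192 middle and 22.8% of the 206 lowest. Of the 26 regions in the top 10% of the WT prednisolone list, 25 were in no GRdim list. In GRdim itself, rho between prednisolone and 6pm scores was 0.283 over the 412 regions in both lists.

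The highest prednisolone scores belonged to regions with lower ranks in the evening. These regions were picked as extremes of the prednisolone score, so a lower rank in the other list follows in part from the choice. The region at chr17:56432407-56432614 (mm9) scored 15.09 after prednisolone in WT, rank 41 of the list, against 2.05 at 6pm, rank 13682. It was in no GRdim list. The strongest ChIP-exo border there had 7.30 RPM (tags scaled to the reads of the library) in the WT prednisolone library, against none in the 6pm and 0.646 in the 6am library. Of the C/EBPβ lists, the prednisolone list alone held a peak there, scoring 3.81. No other region of both WT lists had a wider gap between its percentiles.

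The next highest regions, picked in the same way, also ranked lower at 6pm than after prednisolone. At chr19:36823590-36823790 the WT scores were 10.88 after prednisolone and 3.36 at 6pm, but a 6am peak was centred 465 bp away. At chr18:11144888-11145097 they were 10.43 after prednisolone and 2.56 at 6pm. At chr16:42999153-42999364 they were 10.4 after prednisolone and 4.6 at 6pm. Both of these regions, and the chromosome 19 region, had a C/EBPβ peak after prednisolone alone. At chr9:51060731-51060930 the scores were 9.87 after prednisolone and 2.16 at 6pm, with no C/EBPβ peak in any list. Its strongest border had 4.54 RPM after prednisolone and 0.881 RPM at 6pm, against 1.92 RPM at 6am. The 6am library thus held more signal there than the 6pm library, although neither 6am ChIP-seq list held a peak.

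Of the 10 regions with the highest WT prednisolone scores, 9 carried a C/EBPβ peak after prednisolone. The share was 73.6% in the class and 58.4% over all merged regions. Among regions of both WT lists it was 74.5% in the 184 with the highest prednisolone scores and 84.0% in the 206 with the lowest. At chr1:62099725-62099931 the C/EBPβ score was 9.59 after prednisolone and 3.27 at 6pm, against 2.09 at 6am. The GR scores there were 10.58 after prednisolone and 3.47 at 6pm. At chr4:120750056-120750279 the C/EBPβ scores were 11.56 after prednisolone and 3.31 at 6pm, against 2.37 at 6am. At chr15:25878105-25878310 they were 9.44 and 3.16, against 2.73 at 6am. In these 3 regions C/EBPβ was listed in every condition, and its percentile was highest in the prednisolone list: 95.2, 98.2 and 94.9 after prednisolone and 40.4, 41.3 and 38.1 at 6pm, against 4.66, 16.4 and 28.8 at 6am. Another of the 10, chr13:52167659-52167874, scored 9.49 after prednisolone and 2.23 at 6pm and had a C/EBPβ peak of 2.44 after prednisolone alone.

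GRdim held 1 of these 10 regions. At chr7:26669367-26669575 the GRdim scores were 4.57 after prednisolone and 4.11 at 6pm, and the WT scores were 10.36 and 2.63. After prednisolone the region stood at the percentile 93.5 of the GRdim list, against 96.0 in WT, and at 6pm at 79.3 in GRdim, against 29.04 in WT. The strongest border there had 0.797 RPM in GRdim after prednisolone, against 3.38 RPM in WT, and 0.434 RPM in GRdim at 6pm, against 0.255 RPM in WT. At chr2:146152481-146152718 the GRdim scores were 6.62 after prednisolone and 7.73 at 6pm, and the WT scores were 2.51 and 3.80. Its percentile was higher in GRdim in both conditions, at 98.99 after prednisolone, against 32.9 in WT, and at 98.4 at 6pm, against 59.5 in WT. Its strongest border had 1.66 RPM in GRdim after prednisolone, against 0.549 RPM in WT. At chr13:51961400-51961702 and chr9:103203531-103203754, both in all 4 lists, the GRdim prednisolone scores were 4.83 and 4.72. A further region in all 4 lists, chr4:144677640-144677859, scored 4.53 after prednisolone and 5.87 at 6pm in GRdim.

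The 5 regions with the highest evening scores were likewise picked as extremes, here of the WT 6pm score. At chr15:96836143-96836354 the GRdim score was 2.25 at 6pm, and the WT scores were 2.89 after prednisolone and 7.71 at 6pm. At chr8:96887216-96887435 the GRdim scores were 3.46 after prednisolone and 6.60 at 6pm, and the WT 6pm score was 7.56, with no WT prednisolone peak. At chr15:82036694-82036911 the GRdim scores were 2.27 after prednisolone and 5.80 at 6pm, and the WT 6pm score was 7.49, again with no WT prednisolone peak. At chr5:138416771-138416992 the GRdim 6pm score was 2.25, and the WT scores were 3.15 after prednisolone and 7.20 at 6pm. These 4 regions each had a 6am GR peak centred between 578 and 1104 bp away. The last of the 5, chr15:53218342-53218566, scored 2.42 after prednisolone and 2.56 at 6pm in GRdim, against 4.92 and 7.56 in WT, and lay 115260 bp from the nearest 6am peak.

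The widest gaps in favour of the evening were at chr11:119081277-119081575, with WT scores of 2.10 after prednisolone and 6.91 at 6pm, and at chr4:19920449-19920655, with 2.06 and 5.63. Both carried C/EBPβ in every condition, with scores of 6.14 and 6.46 after prednisolone, 7.47 and 8.17 at 6pm, and 5.02 and 6.55 at 6am. At chr7:104568957-104569170 the GR scores were 2.06 after prednisolone and 5.37 at 6pm, with no C/EBPβ peak in any condition. At chr2:116913247-116913505 they were 2.06 and 5.23, and at chr3:88226061-88226358 they were 2.21 and 6.98. All 5 were also in the GRdim 6pm list. The 5 widest gaps in favour of prednisolone were in no GRdim list. Besides the chromosome 17 and chromosome 9 regions above, they included chr12:85657035-85657235, chr18:84223949-84224155 and chr2:146872838-146873045, with WT prednisolone scores of 8.67, 7.62 and 6.83 and 6pm scores of 2.05, 2.05 and 2.08.

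C/EBPβ was listed at more of these regions after prednisolone and at 6pm than at 6am. A C/EBPβ peak overlapped 691 regions after prednisolone (73.6%, Wilson 95% interval 70.7 to 76.3%) and 734 at 6pm (78.2%, 75.4 to 80.7%), against 594 at 6am (63.3%, 60.1 to 66.3%). Over all 15329 merged regions the shares were 58.4% after prednisolone and 79.8% at 6pm, against 67.3% at 6am. The prednisolone share of the class was therefore above that of all regions, while its 6pm and 6am shares were below theirs. The order of prednisolone and 6pm turned under 2 alternatives. The shares were 73.3% after prednisolone and 72.2% at 6pm with C/EBPβ lists of equal length, and 79.8% after prednisolone and 75.5% at 6pm where WT lists alone chose the regions. C/EBPβ was not mapped in GRdim. In bulk liver, fewer cells with the factor bound and less factor bound per cell cannot be told apart.

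Against 6am, more regions of the class had a C/EBPβ peak after prednisolone alone than at 6am alone. Between the prednisolone and the 6am list, 132 regions gained a peak and 35 lost one, a difference of 10.3 percentage points (7.69 to 12.9). Among all merged regions, 4.23% gained a peak and 13.1% lost one. Between 6pm and 6am, 144 regions of the class gained a peak and 4 lost one, a difference of 14.9 points (12.5 to 17.2). Among all merged regions, 13.5% gained one and 0.992% lost one at 6pm. With C/EBPβ lists of equal length the 6pm difference was 8.95 points. The prednisolone balance of the class ran opposite to that of all regions, and the 6pm balance ran the same way.

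The gain after prednisolone separated the class from regions of 6pm alone. Of 345 regions of the class without C/EBPβ at 6am, 38.3% had a peak after prednisolone, against 7.62% of 2728 regions of 6pm alone. The difference was 30.6 points (Newcombe 95% interval 25.6 to 36.0), and the share over all merged regions was 13.0%. It was between 28.4 and 32.8 points within each of 4 bands of the WT 6pm score. Regions of prednisolone alone had a share of 37.1% (difference 1.18 points, -5.96 to 8.32), and regions of all 3 conditions 16.9% (difference 21.4 points, 15.5 to 27.3). Loss ran the other way. Of regions with C/EBPβ at 6am, 5.89% of the class and 23.4% of 6pm-alone regions had none after prednisolone, a difference of -17.5 points (-19.6 to -15.0). The share was 5.08% in regions of prednisolone alone (n = 59), 10.8% in regions of all 3 conditions and 19.5% over all merged regions. For gain at 6pm the class was near the background, with 41.7% against 41.3% over all merged regions.

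C/EBPβ shares differed between the groups. The 335 regions in both WT lists and no GRdim list had C/EBPβ at 69.0% after prednisolone and 59.4% at 6pm, against 46.6% at 6am. The 247 regions in both WT lists and a GRdim list had it at 93.1% after prednisolone and 93.5% at 6pm, against 85.4% at 6am. At 6am the difference between these groups was -38.9 points (-45.4 to -31.6), with the WT-restricted regions lower. It kept its sign within each of 4 bands of the WT prednisolone score, from -19.5 points at the lowest scores to -55.7 points at scores of 3 to under 4. These bands do not hold the WT 6pm score fixed, whose median was 2.92 in the first group and 3.80 in the second. Presence in GRdim and the evening score are therefore not separated here. C/EBPβ was thus listed at 6am at most regions that GRdim also held, and at fewer of the regions held by WT alone.

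The 345 regions of WT 6pm and GRdim prednisolone differed again. C/EBPβ was at 64.1% of them after prednisolone and 85.8% at 6pm, against 63.5% at 6am. After prednisolone 27 gained a peak and 25 lost one against 6am, a difference of 0.580 points (-3.54 to 4.69). In the 582 regions of both WT lists, 103 gained a peak and 9 lost one, a difference of 16.2 points (12.8 to 19.4). Of regions lacking C/EBPβ at 6am, 47.9% of the 582 and 21.4% of the 345 gained it after prednisolone, a difference of 26.5 points (16.2 to 35.6). The interval included 0 in the lowest band of WT 6pm scores, from 2 to under 2.5 (2.45 points, -15.6 to 19.3), and lay above 0 in the other 3 bands. Since C/EBPβ was measured in WT, where these 345 regions had no listed prednisolone GR peak, their values do not describe the GRdim liver in which GR was listed.

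**Figure D3:**
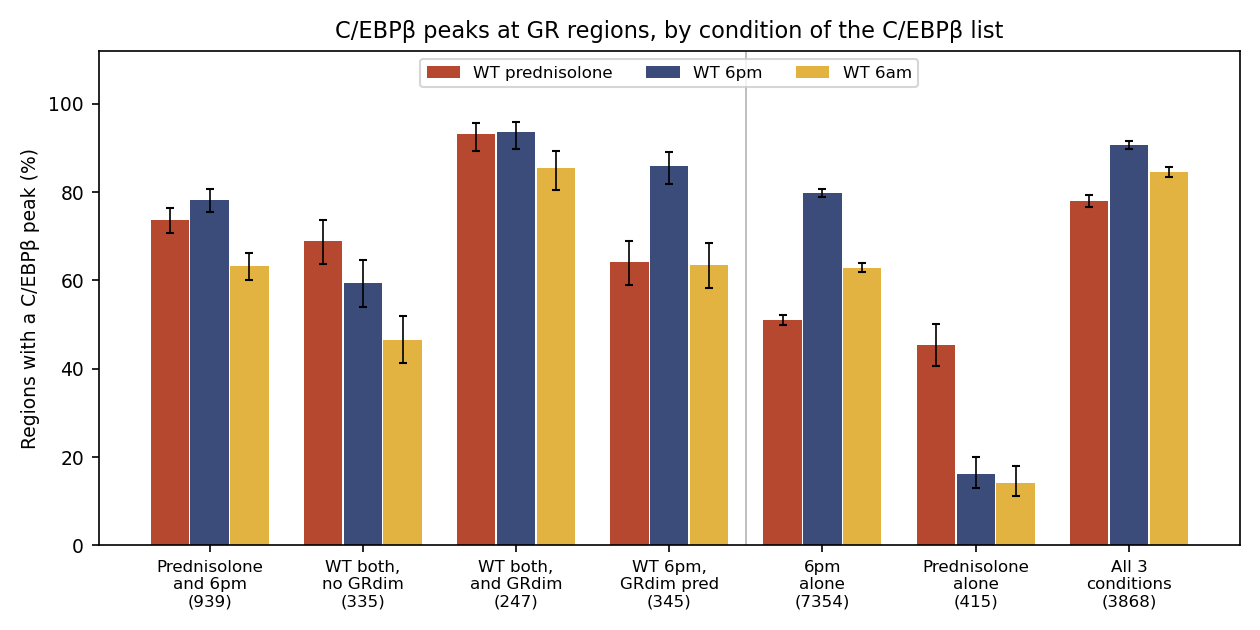
Share of GR regions with a C/EBPβ peak (y axis, %), by region class (x axis, number of regions in brackets), for the C/EBPβ lists of WT prednisolone, WT 6pm and WT 6am. Bars carry Wilson 95% intervals, and classes right of the vertical line are not in the class described. The prednisolone bar is the tallest for regions in both WT lists and no GRdim list (69.0%), and the 6pm bar for regions of WT 6pm and GRdim prednisolone (85.8%).

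C/EBPβ also varied with the prednisolone rank of GR. The 582 regions of both WT lists were divided into 3 near-equal groups by the WT prednisolone score. In the 184 highest (2.93 to 15.09), C/EBPβ was listed at 74.5% after prednisolone and 52.2% at 6pm, against 36.4% at 6am. There 71 regions gained a peak after prednisolone and 1 lost one, a difference of 38.0 points (30.4 to 44.8). In the 206 lowest (2.03 to 2.29) the shares were 84.0% after prednisolone and 87.9% at 6pm, against 79.6% at 6am. A high 6am share leaves less room for a step. Among regions without C/EBPβ at 6am, 71 of 117 in the highest group (60.7%) gained a peak after prednisolone. In the lowest group it was 14 of 42 (33.3%), a difference of 27.4 points (9.73 to 42.2). The strongest prednisolone regions were thus those with the fewest C/EBPβ peaks at 6am and the widest step to the prednisolone list.

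The evening score ordered the C/EBPβ shares the other way. In the 192 regions with the highest WT 6pm scores (3.84 to 7.71), C/EBPβ was at 88.0% after prednisolone and 90.6% at 6pm, against 77.1% at 6am. In the 199 lowest (2.01 to 2.81) it was at 67.8% after prednisolone and 52.3% at 6pm, against 44.2% at 6am. The gain after prednisolone was not turned. Among regions without C/EBPβ at 6am it was 23 of 44 (52.3%) in the highest group and 48 of 111 (43.2%) in the lowest. The difference was 9.03 points (-8.05 to 25.6). All 3 C/EBPβ lists held 557 of the 939 regions (59.3%), none held 146 (15.5%), and the prednisolone list alone held 55. Shares of these list combinations over all merged regions are not given, so the counts are not read as particular to the class. Where present, C/EBPβ peaks were centred a median of 26 bp from the GR centre after prednisolone and 22 bp at 6pm. Their median percentiles within their lists were 76.0 after prednisolone and 70.7 at 6pm, against 66.4 at 6am.

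ChIP-exo digests the precipitated DNA up to where protein protects it, and the files list borders of 10 bp with their tag counts and RPM per strand. The libraries are separate from ChIP-seq but share its conditions and factor, so they are described and lend no independent weight to the class. Their depths, worked out from tags and RPM, were 45.2 M reads after prednisolone, 43.8 M at 6pm and 31.6 M at 6am in GRdim. In WT they were 54.7 M, 43.1 M and 55.7 M for the same conditions. The GRdim 6am library was the shallowest, and its part in the low GRdim 6am shares was not tested. A border lay in 69.5% of the 939 regions in the GRdim prednisolone library and 60.4% in the GRdim 6pm library, against 17.9% in the GRdim 6am library. In WT, 83.5% held one after prednisolone and 74.5% at 6pm, against 68.7% at 6am. Over all merged regions the GRdim shares were 50.7% after prednisolone and 53.5% at 6pm, against 28.2% at 6am. The WT shares were 58.2% after prednisolone and 74.2% at 6pm, against 71.1% at 6am.

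Most of the regions thus had a WT 6am border although no 6am ChIP-seq list held them. All 3 WT libraries gave a border in 460 regions (49.0%), and none did in 39 (4.15%). Prednisolone and 6pm but not 6am gave one in 151 regions (16.1%). No share over all merged regions is given for these combinations, so their counts are not read as particular to the class. Regions of all 3 conditions had a WT 6am border in 98.6%, a difference of -29.9 points (-33.0 to -27.0) for the class. Regions of 6pm alone had one in 53.8%, a difference of 14.9 points (11.7 to 18.0). With borders of at least 20 tags the WT shares were 35.4% after prednisolone and 32.8% at 6pm, against 11.4% at 6am.

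In the WT libraries, border height was lowest at 6am. The strongest border within 100 bp of the centre had a median of 0.329 RPM in WT after prednisolone (773 regions) and 0.417 RPM at 6pm (687), against 0.233 RPM at 6am (636). Over all merged regions the WT medians were 0.293 RPM after prednisolone and 0.464 RPM at 6pm, against 0.269 RPM at 6am. In GRdim the medians of the class were 0.288 RPM after prednisolone (646 regions) and 0.297 RPM at 6pm (557), against 0.316 RPM at 6am, where the shallowest library gave a border in 163 regions. Counting a missing border as 0, the WT prednisolone value was above the 6am value in 668 regions and below it in 195 (77.4% of the unequal pairs, 74.5 to 80.1%). The same share was 34.1% in regions of 6pm alone, 46.0% in regions of all 3 conditions and 94.7% in regions of prednisolone alone. The 6pm value was above the 6am value in 634 regions and below it in 187 (77.2%). That share was 76.0% in regions of 6pm alone, 86.9% in regions of all 3 conditions and 39.3% in regions of prednisolone alone. Prednisolone was above 6pm in 407 and below it in 464 (46.7%). That share was 16.7% in regions of 6pm alone, 18.0% in regions of all 3 conditions and 94.9% in regions of prednisolone alone. Both conditions exceeded 6am at most regions of the class. For prednisolone over 6am, the class stood below regions of prednisolone alone and above the other classes. For 6pm over 6am, it stood near regions of 6pm alone and below regions of all 3 conditions.

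The 3 groups differed in this order as well. In the 335 regions of WT alone, prednisolone exceeded 6pm in 220 and fell short in 105 (67.7% higher). In the 247 regions also in GRdim it exceeded 6pm in 97 and fell short in 146 (39.9%). In the 345 regions of WT 6pm and GRdim prednisolone it exceeded 6pm in 80 and fell short in 212 (27.4%), and it exceeded 6am in 166 and fell short in 121 (57.8%). The WT prednisolone library held a border in 66.1% of those 345 regions, against 93.6% of the 582 regions in both WT lists. The 345 were grouped by having no WT prednisolone ChIP-seq peak, and the 582 by having one. Lower WT prednisolone borders in the 345 therefore follow in part from the grouping and are not read as a separate result.

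GRdim borders tracked the GRdim lists. In the 335 regions in no GRdim list, the GRdim prednisolone library had a border in 30.4% and the GRdim 6pm library in 17.0%. In the 247 regions also in a GRdim list these shares were 89.1% and 84.6%. In the 345 regions they were 92.8% and 85.5%. Over the class, the strongest GRdim border was above its 6pm value after prednisolone in 419 regions and below it in 287 (59.3%). That share of the unequal pairs was 41.1% in regions of 6pm alone and 36.7% in regions of all 3 conditions. In regions of prednisolone alone it was 78.9% (45 above and 12 below).

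**Figure D4:**
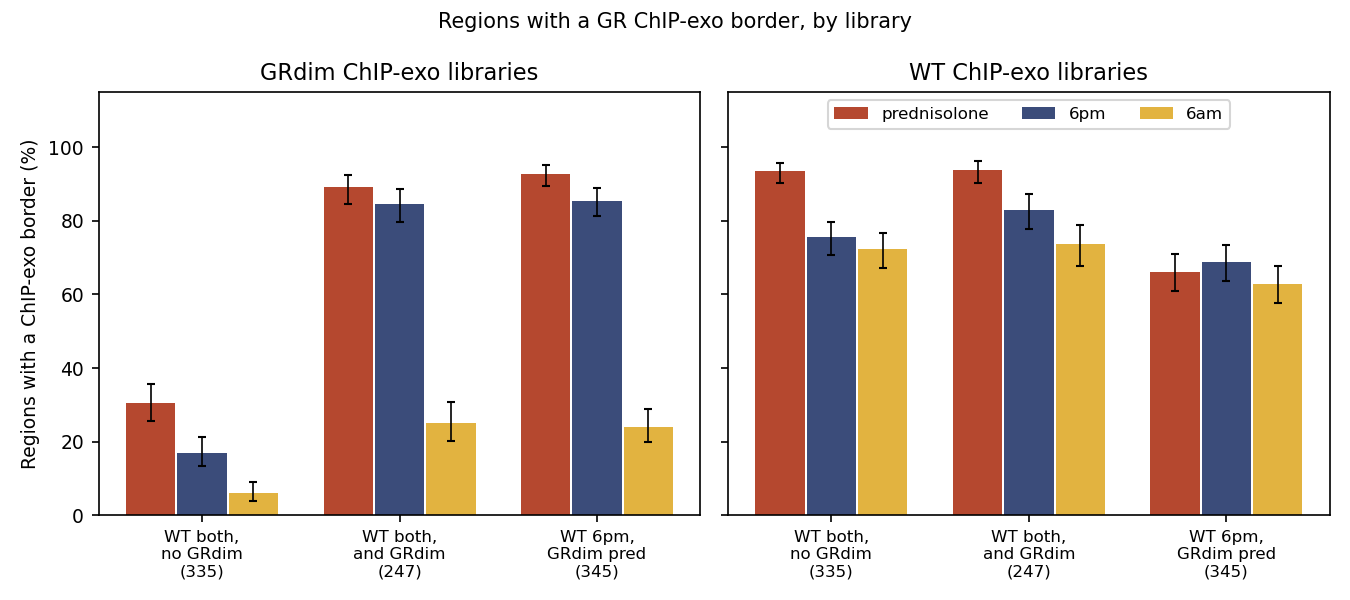
Share of regions with a GR ChIP-exo border (y axis, %) in GRdim libraries (left) and WT libraries (right), for the 335 regions of both WT lists and no GRdim list, the 247 also in a GRdim list, and the 345 of WT 6pm and GRdim prednisolone. Bars carry Wilson 95% intervals. The GRdim bars are low in the first group (30.4% after prednisolone) and the GRdim 6am bars are low in all 3.

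WT ChIP-exo rank went with WT ChIP-seq rank of the same condition. Across regions of both WT lists, rho between the strongest prednisolone border and the prednisolone score was 0.683 (n = 540), and with the 6pm score it was -0.118. For the 6pm border, rho was 0.409 with the 6pm score (n = 447) and 0.274 with the prednisolone score. Between the prednisolone and 6pm borders it was 0.383 (n = 419). Prednisolone and 6pm were thus related in border height across these 419 regions. Their scores, which had served to choose the regions, had a rho of -0.013 across all 582. The WT 6am border had a rho of 0.237 with the prednisolone score (n = 419) and -0.004 with the 6pm score.

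Among regions with no WT 6am border, the highest prednisolone borders were at regions with WT 6pm scores of 2.05 to 2.78. At chr13:52831714-52831933 the strongest border had 2.63 RPM after prednisolone and 0.626 RPM at 6pm, and the GR scores were 9.01 and 2.45. At chr8:108070618-108070817 the border had 1.77 RPM after prednisolone and 0.209 RPM at 6pm. At chr15:6989205-6989421 it had 1.74 RPM after prednisolone and 0.441 RPM at 6pm. The other regions chosen in this way, chr4:124420289-124420509 and chr18:84223949-84224155, had 1.70 and 1.43 RPM after prednisolone. None of these 5 was in a GRdim list.

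Of the 3 large groups, the WT-restricted regions most often had opposite-strand borders near 30 bp apart. The distance was taken between the strongest plus-strand and the strongest minus-strand border within 100 bp of the centre. In the GRdim prednisolone library, 8 of 404 regions of the class (1.98%) had borders 29 to 31 bp apart, against 2.13% over all merged regions with both borders. In the WT prednisolone library it was 56 of 521 (10.7%, 8.37 to 13.7%), against 10.4%. At WT 6pm it was 26 of 332 (7.83%), against 6.19%. At WT 6am it was 28 of 318 (8.81%), against 8.20%. The class as a whole was near the background in each of these libraries. The share depends on which borders are paired. With at least 20 tags on each border it was 24.0% after prednisolone and 14.7% at 6pm in WT, and between the closest opposite borders it was 2.47% after prednisolone and 7.26% at 6pm, which turns the order of the conditions.

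Its groups were not alike in this measure. In the WT prednisolone library 46 of 263 regions of both WT lists and no GRdim list (17.5%, 13.4 to 22.5%) had the 29 to 31 bp spacing. It was 6 of 158 (3.80%) for regions also in a GRdim list and 3 of 95 (3.16%) for regions of WT 6pm and GRdim prednisolone. The first and second groups differed by 13.7 points (7.79 to 19.1). Within bands of the WT prednisolone score the difference was between 4.54 and 22.2 points, and each interval included 0. A spacing of 10 to 12 bp was also more frequent in the first group, at 46 of 263 (17.5%), against 12 of 158 (7.59%) in the second. Over all merged regions it was 11.2%. The WT 6am library showed the 29 to 31 bp spacing as well. There it was 23 of 132 (17.4%) in the first group and 3 of 89 (3.37%) in the second.

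The spacing was most frequent at the highest prednisolone scores. It was found in 37 of 173 regions (21.4%) of the highest-scoring of the 3 groups by score, 7 of 135 (5.19%) of the middle and 8 of 113 (7.08%) of the lowest. At WT prednisolone scores of 4 or more it was 30 of 84 in the class (35.7%). This was against 34.7% of regions of prednisolone alone and 21.2% of regions of all 3 conditions, with a difference from the last of 14.5 points (4.77 to 25.5). In the 199 regions with the lowest 6pm scores it was 30 of 147 with both borders (20.4%), and in the 192 with the highest it was 11 of 145 (7.59%). In the WT 6am library the group with the highest prednisolone scores also had the spacing in 16 of 85 regions (18.8%). The middle group had it in 5 of 67 (7.46%) and the lowest in 5 of 69 (7.25%). In the GRdim prednisolone library the most frequent distance from 16 to 60 bp was 25 bp, and 19 of 404 regions (4.70%) had borders 24 to 26 bp apart, against 6.06% over all merged regions.

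**Figure D5:**
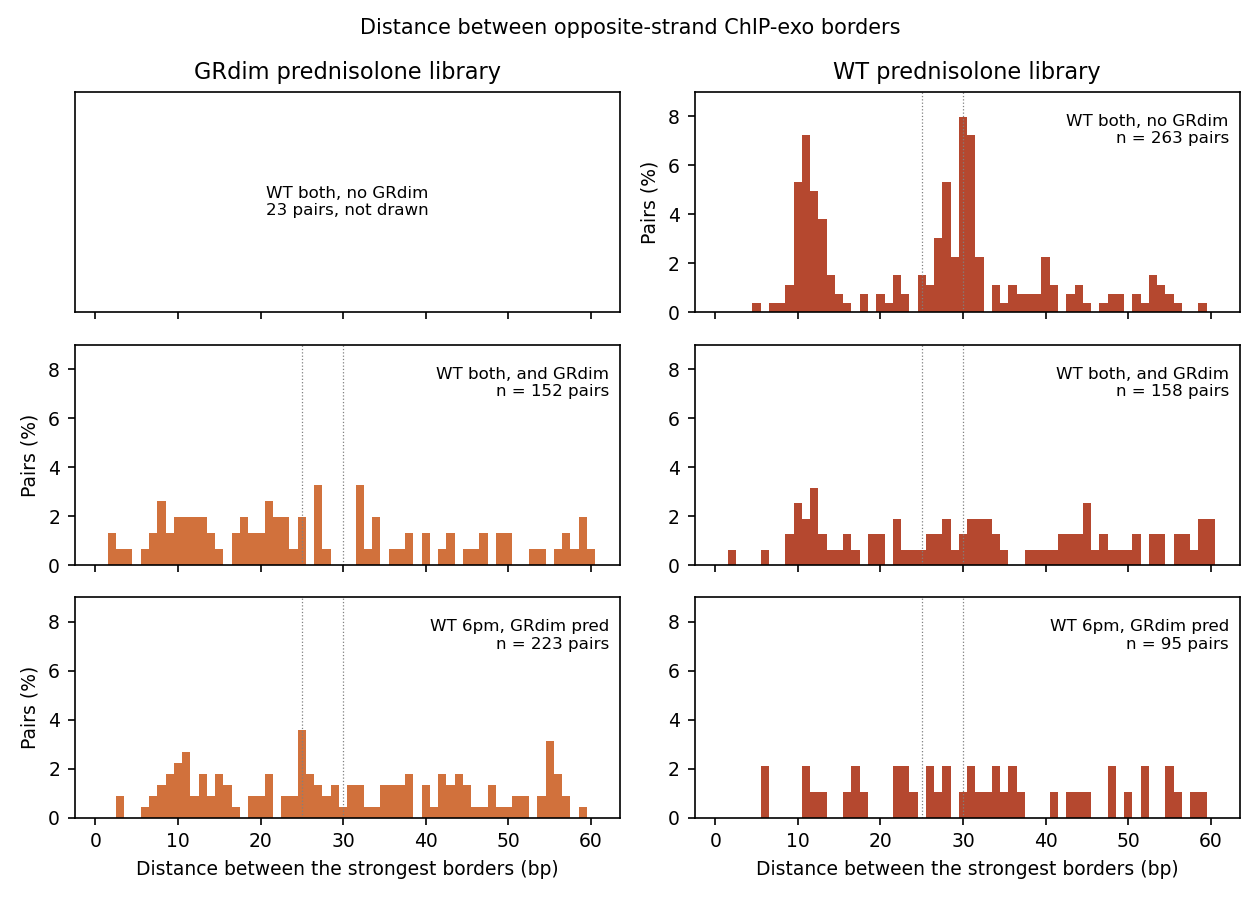
Distance in bp between the strongest opposite-strand ChIP-exo borders (x axis, shown to 60 bp) against the share of regions with both borders (y axis, %), in the GRdim (left) and WT (right) prednisolone libraries, for the 3 groups of regions. Dotted lines mark 25 and 30 bp, and the panel with 23 pairs is not drawn. The WT panel of regions in no GRdim list is highest at 30 bp. In the GRdim panel of regions of WT 6pm and GRdim prednisolone, 25 bp holds 8 of 223 pairs and 55 bp holds 7, so no distance stands out.

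No sequence, nearest gene or exon and intron position is given, because a genome and annotation of the mm9 build were not used here. Motif content was not analysed here.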

How the data were processed

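Per the submitters' processing notes, the tools named are Bowtie and HOMER and the build is mm9. What each did, its version and the calling threshold are not stated there. The deposited ChIP-seq lists hold intervals of 200 bp with a score per peak, at least 2.00, whose unit the files do not name. The deposited ChIP-exo files give tag counts and RPM, which the authors scaled to library reads, for borders of 10 bp. Their deposited border height and spread (signal) were not used. Each list pools 2 replicates per the labels.

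Peaks were merged at 1 bp overlap, C/EBPβ peaks and ChIP-exo borders were assigned at 1 bp overlap, and centres are those of the highest-scoring WT peak. Intervals are Wilson (shares), Newcombe (differences between classes) and adjusted Wald (paired differences). Python 3.11.15, pandas 2.3.3 and numpy 2.4.6 were used, and merging and intervals were tested on simulated data.

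The class and its groups were chosen with earlier results of these data known. Regions named are the highest by WT prednisolone score, WT 6pm score, GRdim prednisolone score in all 4 lists, C/EBPβ after prednisolone alone, prednisolone border without a 6am border, and difference of percentiles. Groups by list and by score, and their bands, were added after the data were seen. Positions are counted from 1.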

Additional observations from a re-analysis of the deposited data

How the results depend on the processing

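With WT lists alone deciding membership, C/EBPβ was at 79.8% of regions after prednisolone and 75.5% at 6pm, the reverse of the main order (73.6% and 78.2%). With GR scores of at least 2.5, 610 regions remained by the rule, 57.5% in a GRdim list, with C/EBPβ at 78.7% after prednisolone and 68.5% at 6am. The 6pm minus 6am difference was 12.0 points, and 13.8 points for regions of WT 6pm and GRdim prednisolone. With GR lists of equal length the rule gave 238 regions, 71.8% in a GRdim list, with C/EBPβ at 88.2% after prednisolone and 93.7% at 6pm, against 81.1% at 6am. The prednisolone minus 6am difference was then 7.14 points, and 11.3 points for regions in both WT lists. The 6pm minus 6am difference was 16.5 points for regions in both WT lists and 12.5 points for regions of WT 6pm and GRdim prednisolone.

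With C/EBPβ centred within 100 bp, shares were 70.0% after prednisolone and 75.2% at 6pm. With C/EBPβ lists of equal length, 73.3% of regions had it after prednisolone and 72.2% at 6pm, again the reverse of the main order, and the 6pm minus 6am difference was 8.95 points (6.53 in both WT lists, 13.6 in WT 6pm and GRdim prednisolone). The C/EBPβ gain over regions of all 3 conditions was 32.7 points at WT 6pm scores from 2 to under 2.5. Borders within 60 bp of the centre gave WT shares of 77.2% after prednisolone and 67.9% at 6pm, against 65.0% at 6am. Borders of at least 20 tags gave 35.4% after prednisolone and 32.8% at 6pm, against 11.4% at 6am. With 20 tags on each border, 24.0% of pairs after prednisolone and 14.7% at 6pm were 29 to 31 bp apart. Between the closest opposite borders it was 2.47% after prednisolone and 7.26% at 6pm, the reverse of the main order. The cause of these shifts was not tested. The other 47 of 79 recomputed values stayed within their interval, or within 1.5 times for counts. Among these, the prednisolone minus 6am difference in regions of WT 6pm and GRdim prednisolone, 0.580 points, was -3.17 with scores of at least 2.5 and -1.39 with GR lists of equal length. No other recomputed difference from 6am or between classes changed sign. Alternatives for the groups by list were added after seeing the data.

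Motif shares were not run. No paired analysis was possible because each list pools 2 replicates and no value exists per replicate. List ends limit every share: a region under a list's lowest score counts as absent.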
